A study of Homo sapiens with 8 samples.

Results

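The miRNAs numbered miR-4417 to miR-4540 received consecutive numbers after small RNA of normal and malignant human B cells had been sequenced. They were followed here in INA-6, an established multiple myeloma cell line, that is, a malignant plasma cell line. Members were chosen by name alone, as every human miRNA of the array from miR-4417 to miR-4540, whatever its letter or arm, and no measured value was used. This gave 142 members of 2549 human miRNAs. A mature miRNA is a short RNA that guides Argonaute proteins to messenger RNAs, mainly through pairing of its seed, which is bases 2 to 8 from the 5′ end. Plasma cells are the antibody-secreting end of the B cell lineage, and for most of the members little is known of what they do in it.

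INA-6 cells, which were grown with interleukin-6, received either the solvent DMSO or 1 μM of UNC1999, an inhibitor of EZH2, for 120 hours, with medium and reagents renewed at 72 hours. EZH2 is the catalytic subunit of Polycomb repressive complex 2, which places the repressive mark H3K27me3 on chromatin. For the control, the sample titles give DMSO and the treatment text of the same samples gives UNC2400, an inactive form of the compound, so the control is called DMSO below after the titles. There were 4 DMSO and 4 UNC1999 arrays, each with 100 ng of labelled RNA and all on 1 slide, and the labels call them biological replicates of the same cell line.

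Of the 5 miRNAs listed as markers of blood cells, miR-142-3p, miR-142-5p, miR-150-5p and miR-21-5p were detected on all 8 arrays. miR-155-5p was detected on 0 of 4 DMSO and 2 of 4 UNC1999 arrays. Of 13 markers of other cell types, 11 were detected on no array, while the myeloid miR-223-3p and the neuronal miR-9-5p were detected on all 8. Of the markers detected on all 8 arrays, miR-21-5p was not called, with a log2 fold change of -0.01. The others moved with the treatment, with log2 fold changes of 1.18 for miR-223-3p, -0.88 for miR-9-5p, -0.52 for miR-142-3p, -0.36 for miR-142-5p and -0.56 for miR-150-5p. All of these were called in the same fit as the members, and their part in the members' results was not tested. DMSO replicates 2 and 3 stood apart, with 369 and 370 human miRNAs detected against 474 to 500 on the other 6 arrays. The arrays of each group also fell into 2 pairs of more alike arrays, DMSO replicates 1 and 4, DMSO replicates 2 and 3, UNC1999 replicates 1 and 3, and UNC1999 replicates 2 and 4. The median absolute log2 difference of the tested members was 0.051 to 0.129 within these pairs and 0.21 to 0.317 between the other arrays of a group. The labels do not say whether alike arrays share a culture or an extraction, so counts of calls are given below also with each pair averaged, and calls lost in that way are named.

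The mature sequences below, from RefSeq (GRCh38.p14), belong to the members whose values carry most of the description, with the seed in capitals. The first 4 had higher signals after UNC1999, and miR-4505 was not called. miR-4516 lies at chr16:2133120-2133136 (+), within the bounds of PKD1, the gene of polycystin-1. miR-4534 lies at chr22:37988829-37988845 (+), within POLR2F, which encodes a subunit shared by the RNA polymerases. miR-4466 lies at chr6:156779710-156779727 (-), within ARID1B, a subunit gene of the SWI/SNF chromatin remodeler, and miR-4530 at chr19:39409629-39409646 (-), within no other gene. miR-4505 lies at chr14:73758749-73758766 (+), within MIDEAS. The gene table used here gives whole gene bounds on either strand, and exons and introns were not told apart.
miR-4516: gGGAGAAGggucggggc
miR-4534: gGAUGGAGgaggggucu
miR-4466: gGGUGCGGgccggcgggg
miR-4530: cCCAGCAGgacgggagcg
miR-4505: aGGCUGGGcugggacgga

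The next 4 are members with lower signals after UNC1999. miR-4428 lies at chr1:237471164-237471185 (+), within RYR2, the cardiac ryanodine receptor gene, and miR-4443 at chr3:48196572-48196588 (+), within no other gene. miR-4484 lies at chr10:125819803-125819822 (+), within UROS, a heme synthesis gene, and miR-4449 at chr4:52712720-52712741 (+), within the long non-coding RNA gene DANCR.
miR-4428: cAAGGAGAcgggaacauggagc
miR-4443: uUGGAGGCguggguuuu
miR-4484: aAAAGGCGggagaagcccca
miR-4449: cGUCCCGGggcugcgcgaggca

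The 3p arms of miR-4433a and miR-4433b are shown because their genes overlap on opposite strands, each arm lying within the gene of the other. The mature arms themselves do not overlap, at chr2:64340809-64340829 (+) and chr2:64340769-64340789 (-). They share an unbroken run of 12 bases. The bases after it are also alike, apart from an extra G in miR-4433b-3p and the base before the last. Whether their probes tell them apart was not tested. Their seeds are offset by 1 base. miR-4485-3p, at chr11:10508277-10508296 (-), lies in MTRNR2L8, a nuclear pseudogene copy of mitochondrial ribosomal RNA, and whether its probes also take up that RNA was not tested.
miR-4433a-3p: aCAGGAGUgggggugggacau
miR-4433b-3p: cAGGAGUGgggggugggacgu
miR-4485-3p: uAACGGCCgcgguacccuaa

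The array detected a minority of the members. Of the 142, 27 were detected on all 8 arrays, 103 on none, and 12 on some. The test took in the 35 members that every array of either group detected, 24.6% of the members against 17.5% of the other human miRNAs, 421 of 2407. Of the 8 tested members not detected on every array, 5 were missing only on DMSO replicates 2 and 3, the arrays with the fewest detected miRNAs. These were miR-4496, miR-4476, miR-4522, miR-4433b-3p and miR-4462, named here after their values had been seen. The 4 members detected on some arrays but not tested were miR-4419a, miR-4436b-5p, miR-4446-3p and miR-4488. miR-4458 and miR-4500, which share the let-7 seed, were among the 103 members detected on no array, as was miR-4461, and miR-4454 was not analysed here.

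A member is called below when the adjusted p of limma's moderated test, over all 456 human miRNAs tested, was at most 0.05 and the fold change at least 1.2. Signals are log2 of the intensity summed over a miRNA's probes and divided by the 75th percentile of its array, and values below a floor of 8.98, which is 3.17 on the log2 scale, were raised to it. Signals of different miRNAs depend on their probes, so that the brightness of a member is no measure of its amount beside another.

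More members were called higher than lower after UNC1999. Of the 27 members detected on all 8 arrays, 12 were called higher, 44.4% against 31.5% of all 346 such miRNAs, and 5 were called lower, 18.5% against 40.2%. The other 8 tested members passed the detection filter through the UNC1999 arrays alone, which favors a higher signal there, and 6 of them were called higher and 0 lower, so their calls are a description. With them, 18 of the 35 tested members were called higher, 51.4% against 36% of all tested miRNAs, and 5 lower, 14.3% against 34.6%. The other 12 were not called, with log2 differences between -0.19 and 0.20, and none of the 35 reached a 2-fold change. The median log2 fold change was 0.12 over the 27 members and -0.14 over all miRNAs detected on all 8 arrays, and it was 0.28 over the 35 members and 0.01 over all tested miRNAs. The groups did not overlap for 16 members that were higher, against 32.7% of all tested miRNAs, and for 4 that were lower, also against 32.7%. Of the 16, miR-4496, miR-4476, miR-4481, miR-4522 and miR-4433b-3p passed the detection filter through the UNC1999 arrays alone, so their separation is a description. All 23 called members had the same sign within both rows of the slide. For all but 3 of them the groups did not overlap, which fixes that sign in advance. UNC1999 replicate 4 was the only UNC1999 array of row 1, and DMSO replicate 3 the only DMSO array of row 2. This therefore says nothing on an effect of position.

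These directions are relative to the scaling. Without scaling, the median of all tested miRNAs itself moved to a log2 fold change of 0.67, and that of the members to 0.88. In that fit 25 members were called higher, against 51.3% of all tested miRNAs, and 0 lower by limma, where also at an unadjusted p under 0.05 the count was 0. All 5 members called lower then had log2 fold changes above 0, up to 0.37, as they did when scaled to the labelling spike-ins, up to 0.48. Normexp background correction was run only with an offset of 50 added to the intensities, so the part of the offset was not tested. With this correction and its offset, 8 of the 18 members called higher had log2 fold changes below 0, down to -0.31. miR-4481 was called lower. In that fit 6 members were called higher and 10 lower, against 11.8% and 50.4% of all tested miRNAs, whose median was -0.29.

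When alike arrays were averaged, leaving 2 values against 2, 8 members were called higher and 1 lower, against 15.4% and 18.9% of all tested miRNAs. The fold changes stay as they are in this fit, and the calls kept were those of miR-4516, miR-4459, miR-4534, miR-4433a-3p, miR-4485-3p, miR-4428 and, among members not detected on every array, miR-4496, miR-4522 and miR-4433b-3p. The other 14 calls were lost, with adjusted p of limma from 0.0535 for miR-4443 to 0.268 for miR-4515.

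**Figure D1:**
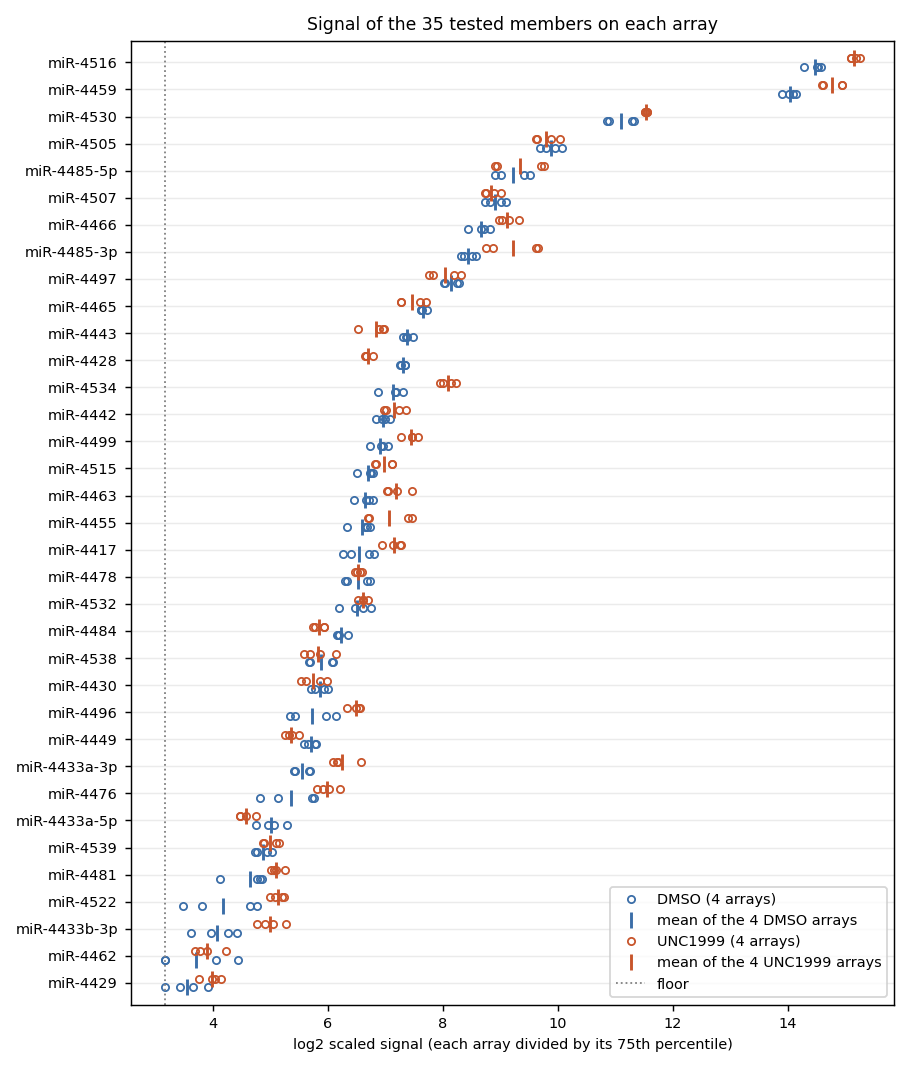
The horizontal axis gives the log2 scaled signal, and each row is 1 of the 35 tested members, ordered by its mean on the DMSO arrays. Circles are single arrays, vertical ticks are means of the 4 arrays of a group, and the dotted line is the floor of 3.17. The arrays of miR-4516, miR-4459 and miR-4534 separate fully by group, while those of miR-4505 and miR-4507 overlap.

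miR-4516 and miR-4459 were the brightest members, and both were higher after UNC1999. The log2 signals of miR-4516 were 14.58, 14.28, 14.51 and 14.53 on DMSO replicates 1 to 4 and 15.10, 15.19, 15.10 and 15.25 on UNC1999 replicates 1 to 4. Every UNC1999 array lay above every DMSO array, with a log2 fold change of 0.68 (SE 0.10, limma's adjusted p = 0.000415). All 3 probes of miR-4516 moved alike, by 0.69, 0.69 and 0.67. miR-4459 had log2 signals of 14.10, 13.90, 14.03 and 14.15 after DMSO and of 14.61, 14.95, 14.59 and 14.95 after UNC1999, also without overlap. Its log2 fold change was 0.73 (SE 0.12, limma's adjusted p = 0.000628), and both its probes moved by 0.73 to 0.74.

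These calls were lost under quantile normalization, where the log2 fold change was 0.00 for miR-4516 and 0.07 for miR-4459, and in the deposited log2 table, where it was 0.26 and 0.27. Quantile normalization gives every array the same value at the same rank. miR-4516 ranked 3 among all human miRNAs on all 8 arrays, and miR-4459 ranked 4 on 7 arrays and 5 on DMSO replicate 2.

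The other bright members differed in their calls. miR-4530 was at 11.32, 10.86, 10.89 and 11.29 on the DMSO arrays and between 11.51 and 11.54 on the UNC1999 arrays, a log2 fold change of 0.44 (SE 0.13, limma's adjusted p = 0.0111). The DMSO arrays split into their alike pairs here, and without replicates 2 and 3 the log2 fold change was 0.22 and miR-4530 was no longer called, nor was it with alike arrays averaged (adjusted p = 0.119). miR-4466 was at 8.82, 8.44, 8.71 and 8.67 after DMSO and at 8.98, 9.15, 9.02 and 9.32 after UNC1999, a log2 fold change of 0.46 (SE 0.12, limma's adjusted p = 0.00633) with no overlap, and it was not called with alike arrays averaged (adjusted p = 0.0916). miR-4505 was at 9.80, 9.94, 10.07 and 9.69 after DMSO and at 9.62, 9.89, 9.64 and 10.04 after UNC1999, so the groups overlapped and the log2 difference of -0.08 (SE 0.13, limma's adjusted p = 0.583) was within their spread. miR-4485-5p, the other member among the 6 brightest, is described with its sister arm.

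Outside the brightest members, miR-4534 had the largest rise of the members detected on every array. It had log2 signals of 7.30, 6.86, 7.18 and 7.16 after DMSO and of 7.95, 8.14, 8.00 and 8.23 after UNC1999. The groups were well apart, with a log2 fold change of 0.95 (SE 0.12, limma's adjusted p = 0.000183), and its 2 probes gave 0.97 and 0.94. Among the 23 called members, miR-4534 alone kept its call under all 26 alternatives of scaling, background, filter, block or arrays, with log2 fold changes from 0.43 to 1.77. miR-4417 was at 6.80, 6.26, 6.40 and 6.72 after DMSO and at 7.27, 6.94, 7.25 and 7.13 after UNC1999, a log2 fold change of 0.60 (SE 0.14, limma's adjusted p = 0.00374). Its groups did not overlap either, and its 2 probes gave 0.66 and 0.53. With normexp background correction its log2 fold change was 0.05, and its call was lost there, without a filter on detection, and with alike arrays averaged (adjusted p = 0.0573).

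Both arms of miR-4433a were tested, and under the reported scaling they were called in opposite directions, while without scaling both lay above 0, at 1.39 for the 3p and 0.25 for the 5p arm, and with normexp both lay below 0, at -0.10 and -0.39. miR-4433a-3p was at 5.67, 5.41, 5.69 and 5.43 after DMSO and at 6.09, 6.16, 6.17 and 6.57 after UNC1999, a log2 fold change of 0.70 (SE 0.13, limma's adjusted p = 0.00132). miR-4433a-5p was at 4.96, 5.06, 5.28 and 4.74 after DMSO and at 4.57, 4.46, 4.47 and 4.75 after UNC1999, a log2 fold change of -0.45 (SE 0.13, limma's adjusted p = 0.0113). The groups of the 3p arm were apart, while UNC1999 replicate 4 of the 5p arm lay above DMSO replicate 4, so that its exact permutation p was 0.0571. The difference between the arms was not tested. The call of the 5p arm was lost under 11 of 26 alternatives. For this arm 1 of 2 probes was at the floor on 6 of 8 arrays, and above it only on DMSO replicates 2 and 3. The other probe moved by -0.275, with an exact permutation p of 0.0571. miR-4433b-3p, which shares the 12-base run with the 3p arm, passed the detection filter through the UNC1999 arrays alone, being detected on 2 of 4 DMSO arrays and by 1 measured probe. Its log2 difference of 0.93 (SE 0.18, limma's adjusted p = 0.00148) is therefore a description, and it was -0.26 with normexp.

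Both arms of miR-4485 were bright and followed the pairs of alike arrays. miR-4485-3p was at 8.31, 8.51, 8.57 and 8.36 after DMSO and at 8.86, 9.65, 8.76 and 9.62 after UNC1999. It was higher on every UNC1999 array, with a log2 fold change of 0.79 (SE 0.20, limma's adjusted p = 0.00659), and UNC1999 replicates 2 and 4 lay 0.82 above replicates 1 and 3. miR-4485-5p was at 8.90, 9.42, 9.52 and 9.02 after DMSO and at 8.95, 9.71, 8.91 and 9.76 after UNC1999, and its log2 difference of 0.12 (SE 0.23, limma's adjusted p = 0.639) was not called. Its alike pairs were 0.51 apart after DMSO and 0.81 apart after UNC1999, more than the difference between the groups.

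**Figure D2:**
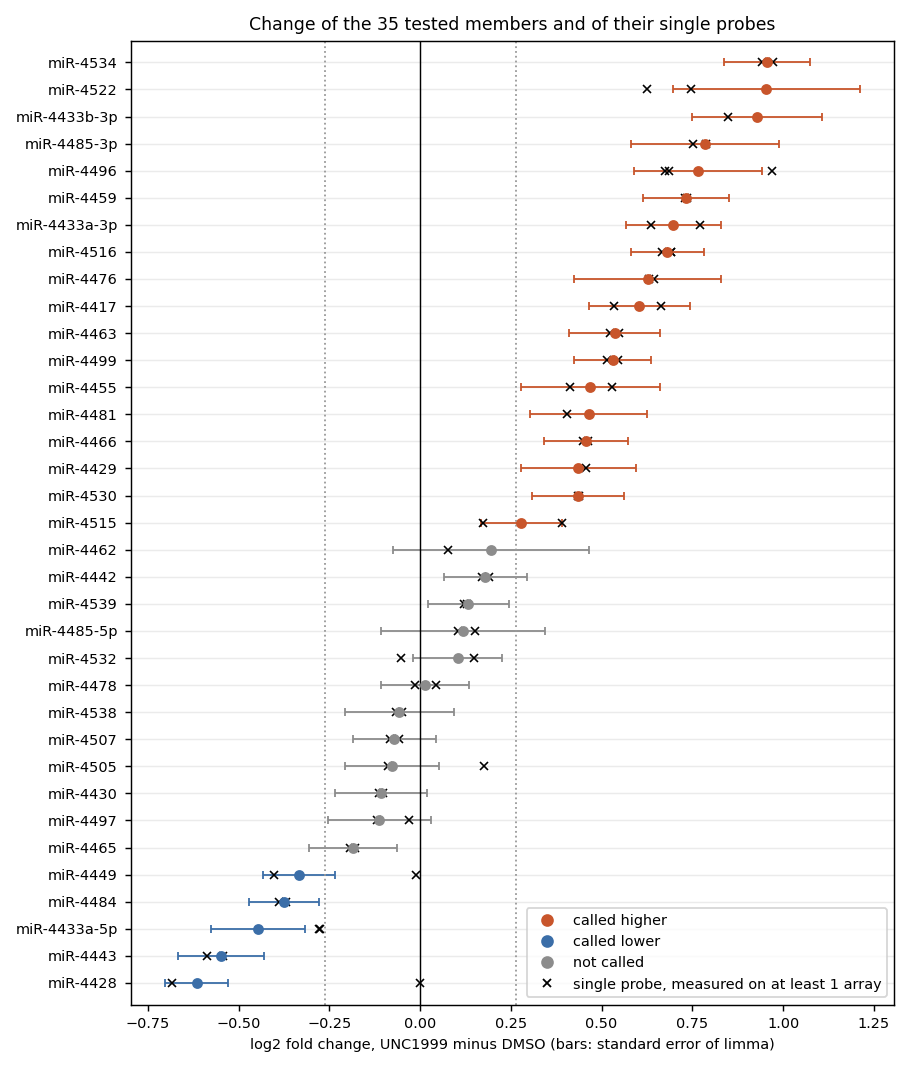
The horizontal axis gives the log2 fold change of UNC1999 over DMSO, and each row is 1 of the 35 tested members, with the standard error of limma as a bar and the members called higher, called lower and not called in different colors. Crosses are single probes with a signal above the floor on at least 1 array, and the dotted lines mark a 1.2-fold change. The probes of most members lie close to the sum, and the probe of miR-4428 at 0.00 lies apart from it.

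Of the 5 members called lower after UNC1999 under the reported scaling, all of which lay above 0 without scaling, miR-4428 had the largest fall. It was at 7.33, 7.28, 7.34 and 7.26 after DMSO and at 6.66, 6.78, 6.67 and 6.64 after UNC1999, a log2 fold change of -0.62 (SE 0.09, limma's adjusted p = 0.00037). The groups were far apart, but this came from 1 of its 2 probes, which moved by -0.68, while the dimmer probe, between 3.17 and 3.92, moved by 0.00. miR-4443 was at 7.38, 7.36, 7.48 and 7.31 after DMSO and at 6.96, 6.52, 6.88 and 6.97 after UNC1999, a log2 fold change of -0.55 (SE 0.12, limma's adjusted p = 0.0026), and its probes gave -0.59 and -0.54. No array of one group reached the other, but the call was lost with alike arrays averaged (adjusted p = 0.0535).

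The remaining falls were smaller. miR-4484 was at 6.16, 6.19, 6.35 and 6.17 after DMSO and at 5.78, 5.92, 5.74 and 5.93 after UNC1999, a log2 fold change of -0.38 (SE 0.10, limma's adjusted p = 0.00621) from 2 probes at -0.39 and -0.37. miR-4449 was at 5.79, 5.57, 5.64 and 5.78 after DMSO and at 5.38, 5.49, 5.33 and 5.26 after UNC1999, a log2 fold change of -0.33 (SE 0.10, limma's adjusted p = 0.0124). The groups of both did not overlap, and both calls were lost with alike arrays averaged (adjusted p = 0.137 and 0.179). Under 1 of 26 alternatives miR-4484 was called higher. For miR-4449 1 of 2 probes was at the floor on 6 of 8 arrays, so its fall rests on the other probe, which moved by -0.40.

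The probes of a miRNA are separate measurements on the same array, each with 10 spots as a rule, and they share the RNA and the labelling. Of the 142 members, 129 had 2 probes, 12 had 3 and 1 had 4. Every measured probe moved in the direction of the sum for 31 of the 35 tested members and for 22 of the 23 called ones, miR-4428 being the exception. For 17 of the called members every measured probe reached an exact two-sided permutation p of 0.0286, the smallest that 4 against 4 arrays can give. Calls rest on the sum of these same probes, so this agreement is a description. Such a p means that the groups of a probe did not overlap. No share over all tested miRNAs is given for probes. By summed signals, the groups did not overlap for 32.7% of all tested miRNAs in each direction. Of the 17, miR-4429, miR-4433b-3p, miR-4481, miR-4496 and miR-4522 passed the detection filter through the UNC1999 arrays alone. For 4 tested members, miR-4429, miR-4433b-3p, miR-4462 and miR-4481, a probe was at the floor on all 8 arrays, and 3 of these were called and rest on 1 probe.

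The calls of 4 members close to the thresholds depended on single arrays. The call of miR-4515, a log2 fold change of 0.28 with limma's adjusted p = 0.0451, was lost without any 1 of the DMSO replicates or without UNC1999 replicate 2 or 4, with adjusted p of 0.0523 to 0.117. miR-4455, at 0.47 with limma's adjusted p = 0.0476, lost its call without DMSO replicate 1, 2 or 3 or without UNC1999 replicate 2 or 4, with adjusted p of 0.0549 to 0.144. Its UNC1999 arrays lay at 6.69 and 6.71 for replicates 1 and 3 and at 7.39 and 7.46 for replicates 2 and 4, so that the alike pairs differed by more than the groups. miR-4481, at 0.46 with limma's adjusted p = 0.0245, lost it without UNC1999 replicate 2 (0.0659) or 4 (0.0519). miR-4429 lost it without DMSO replicate 2 or 3 or without UNC1999 replicate 1, 2 or 4, with adjusted p of 0.0584 to 0.0817. miR-4515 and miR-4455 are named here after their values had been seen.

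The sequences differed from those of other miRNAs in ways that the numbering did not use. RefSeq held 126 of the 142 members and 29 of the 35 tested ones, which had 29 different seeds. The tested members were short and rich in G. Their median length was 20 bases against 22 for other tested miRNAs, and 14 of 29, or 48.3%, had at most 18 bases, against 6.28%, a limit set after the values had been seen. Their median G content was 47.1% against 38.6%, and 12 of 29, or 41.4%, were at least 50% G, against 33.6% of the other tested miRNAs. Among the members with a sequence that were not tested, 8.25% were at least 50% G and 18.6% had at most 18 bases. Of the printed members, miR-4466 was the richest in G, at 72.2%.

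The share called higher among members rich in G was near that among other G-rich miRNAs. Of the 12 tested members with at least 50% G, 7, or 58.3%, were called higher and 0 lower by limma (0 also at an unadjusted p under 0.05), with a median log2 fold change of 0.46. Of 123 other tested miRNAs of that kind, 77, or 62.6%, were called higher and 10, or 8.13%, lower, with a median of 0.47. The 17 members below 50% G had 8 called higher and 4 lower and a median of 0.20, while the 243 other miRNAs below 50% G had 46 called higher and 126 lower and a median of -0.36. These counts include members that passed the detection filter through the UNC1999 arrays alone, so they are a description. Called higher among them were miR-4433b-3p and miR-4481 with at least 50% G, and miR-4429, miR-4476 and miR-4522 below 50% G. Across miRNAs, which are not independent replicates and share the arrays, the Spearman correlation of G content with log2 fold change was 0.62 over 366 other miRNAs and 0.18 over the 29 members. The part of G content in the members' changes was not tested.

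**Figure D3:**
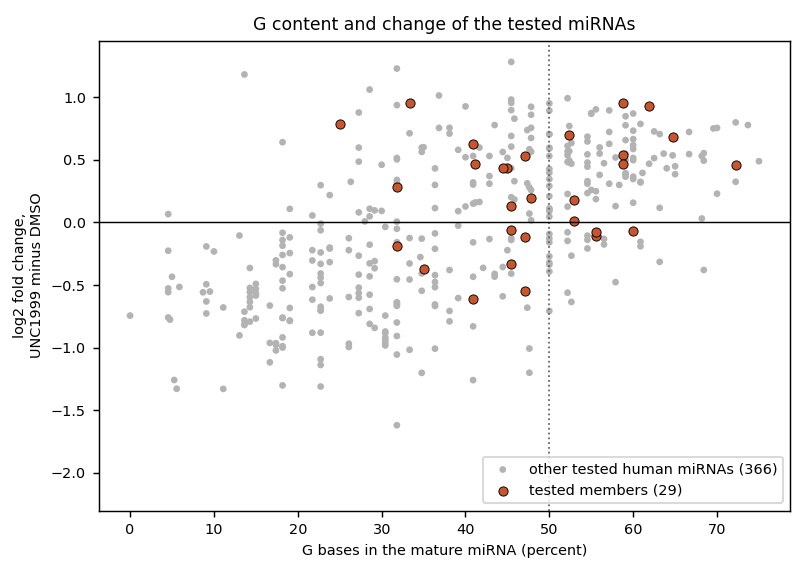
The horizontal axis gives the percent of G in the mature miRNA and the vertical axis the log2 fold change of UNC1999 over DMSO. Each point is 1 tested miRNA, the 29 members in orange and 366 other human miRNAs in gray, and the dotted line marks 50% G. The gray points climb from left to right, and the members lie mostly between 40% and 60% G on both sides of 0.

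Of the tested members, 7 shared their seed with tested miRNAs outside the numbers, and the sequences of 2 of these families are shown because the members differ from their relatives outside the seed. miR-4429 shares its seed with the miR-320 family, and miR-4465 with the miR-26 family, which is expressed in many tissues.
miR-4429: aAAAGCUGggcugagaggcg
miR-320b: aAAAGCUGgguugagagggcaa
miR-320c: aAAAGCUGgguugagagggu
miR-4465: cUCAAGUAgucugaccagggga
miR-26a-5p: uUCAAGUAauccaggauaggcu
miR-26b-5p: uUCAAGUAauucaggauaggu

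miR-4429 was detected on 0 of 4 DMSO and all 4 UNC1999 arrays. Its log2 signals were 3.91, 3.17, 3.42 and 3.64 after DMSO and 3.98, 4.03, 3.75 and 4.13 after UNC1999, so that DMSO replicate 1 lay above UNC1999 replicate 3. It passed the detection filter through the UNC1999 arrays alone, so that its call (limma's adjusted p = 0.0297) is a description. No fold is given for it, since the lowest detected signals of the DMSO arrays lay at its level. Among the miRNAs of the same seed, miR-320b was called lower at -0.43 (SE 0.10, limma's adjusted p = 0.00374), as was miR-320d at -0.36 (SE 0.10, limma's adjusted p = 0.0099), while miR-320c was called higher at 0.51 (SE 0.09, limma's adjusted p = 0.000982), all as log2 fold changes. One seed thus held calls in both directions.

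miR-4465 was at 7.61, 7.64, 7.72 and 7.61 after DMSO and at 7.26, 7.71, 7.27 and 7.60 after UNC1999. Its log2 difference of -0.19 (SE 0.12, limma's adjusted p = 0.186) was not called, and the UNC1999 arrays split into their alike pairs. miR-26a-5p was called lower, with a log2 fold change of -0.33 (SE 0.13, limma's adjusted p = 0.0465), and miR-26b-5p, at -0.21, was not. miR-4516 shares its seed with miR-5703, called higher at 0.95, and miR-4481 with miR-4745-5p, called higher at 0.57. miR-4505 and miR-4507, which were not called, share theirs with miR-5787 and miR-3940-5p, called higher at 0.75 and 0.51. miR-4430, at -0.11 and not called, shares its seed with miR-3652, at 0.25 and not called.

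Members that lie in genes of the B cell lineage were grouped by position after their values had been seen. miR-4507, miR-4537, miR-4538 and miR-4539 lie within the immunoglobulin heavy chain locus IGH on chromosome 14. miR-4507 was at 8.82, 9.002, 9.09 and 8.74 after DMSO and at 8.73, 8.88, 8.75 and 9.003 after UNC1999, and its log2 difference of -0.07 (SE 0.11, limma's adjusted p = 0.574) was within the spread of its overlapping groups. miR-4538 and miR-4539 were not called either, at -0.06 (SE 0.15) and 0.13 (SE 0.11), and miR-4537 was detected on no array. miR-4476 and miR-4540 lie within PAX5 on chromosome 9, a transcription factor gene that keeps B cell identity and is turned off in plasma cells. miR-4476 was not detected on DMSO replicates 2 and 3, at 4.82 and 5.13, against 5.75 and 5.72 on replicates 1 and 4, so it passed the detection filter through the UNC1999 arrays alone. Its log2 difference of 0.63 (SE 0.20, limma's adjusted p = 0.0184) is therefore a description. It was not called without those 2 arrays or with alike arrays averaged, and it was -0.16 with normexp. miR-4540 was detected on no array.

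The members took a larger share of the signal after UNC1999. Of the summed signal of all human miRNAs, they held 5.07% ± 0.549 (SD, n = 4) in the control group. In the UNC1999 group they held 12.4% ± 1.74 (SD, n = 4). The single arrays were at 5.48%, 4.46%, 4.75% and 5.59% after DMSO and at 10.6%, 14.1%, 11.3% and 13.7% after UNC1999, with an exact two-sided permutation p of 0.0286, the smallest the design allows. The share split by the alike pairs in both groups. DMSO replicates 1 and 4 lay above 2 and 3, and UNC1999 replicates 2 and 4 above 1 and 3. The p and the SD count the arrays as independent, and the share was not tested with alike arrays averaged. miR-4516 went from 2.45% to 6.16% and miR-4459 from 1.82% to 4.78%, and the other members together from 0.80% to 1.51%. A share of the signal is not a share of molecules.

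The ratio of the shares depended on miR-7975 and miR-7977, the brightest human miRNAs of the arrays and no members. Together they held 66.2% ± 3.84 (SD, n = 4) of the signal in the control group and 45.9% ± 4.07 (SD, n = 4) in the UNC1999 group. With them left out of the sum, a step added after the values had been seen, the members' share was 15.0% ± 0.456 (SD, n = 4) in the control group. It was 22.9% ± 1.497 (SD, n = 4) in the UNC1999 group, a ratio of 1.53 against 2.46 with them in the sum. The difference between the groups was 7.93 percentage points without them and 7.37 with them.

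**Figure D4:**
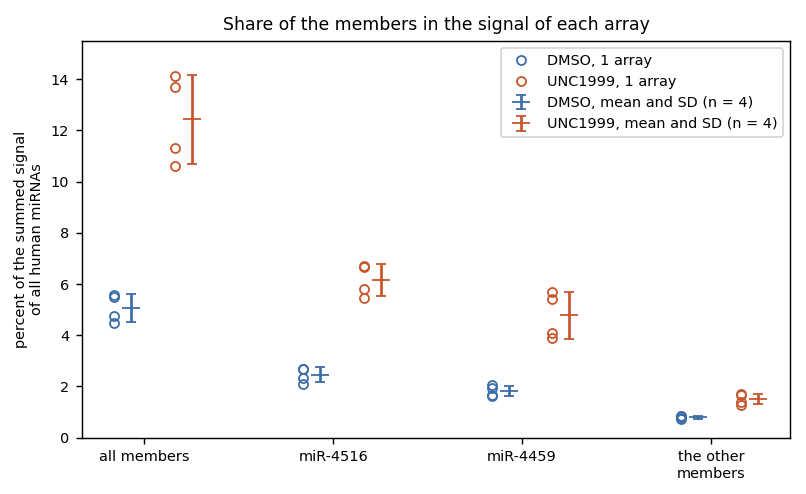
The vertical axis gives the percent of the summed signal of all human miRNAs on an array, for all members, for miR-4516 and miR-4459 alone, and for the other members together. Circles are single arrays, with the mean and SD of the 4 arrays of each group beside them. The UNC1999 arrays lie above the DMSO arrays in all 4 columns, and miR-4516 and miR-4459 make up most of the share.

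**Figure D5:**
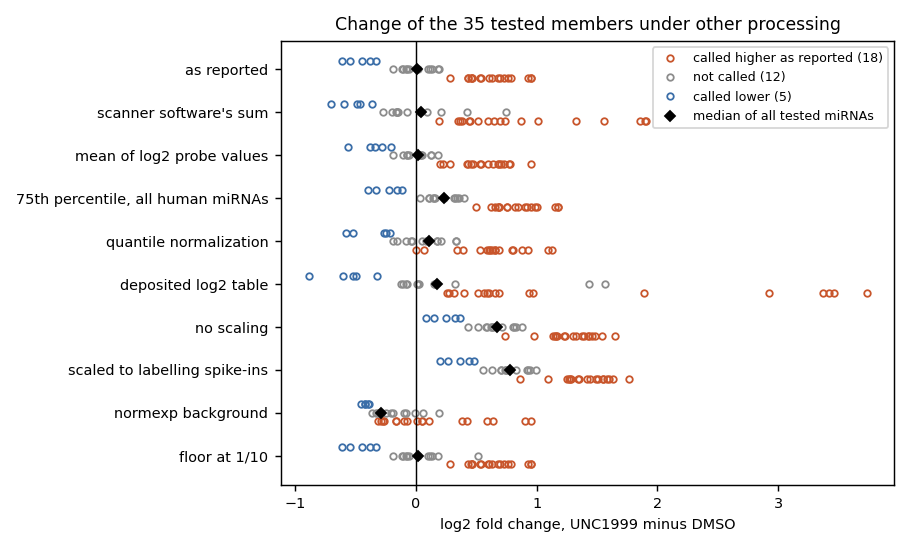
The horizontal axis gives the log2 fold change of UNC1999 over DMSO, and each row is a way of processing the arrays. Circles are the 35 tested members, split by their call as reported, and diamonds are medians of all tested miRNAs, which lie at 0.01 as reported, at 0.67 without scaling and at -0.29 with normexp background correction. The members called lower lie to the right of 0 in the rows without scaling and with labelling spike-ins.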

How the data were processed

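The 8 single-color arrays measured mature miRNAs in INA-6 cells. The deposited scanner output, made with Agilent Feature Extraction 10.7.3.1 per the file headers, holds a background-subtracted intensity for each of 53144 spots, not normalized between arrays. A second deposited table holds the authors' log2 values for 2042 features, whose 300 highest values are the same on every array, as quantile normalization gives. Spots marked as outliers were left out, spot means were summed over the probes of a miRNA, and the sums divided by the array's 75th percentile, taken over the 346 miRNAs that all 8 arrays detected. A floor of 8.98 was then set. limma 3.58.1 (R 4.3.3) was fitted without a block to 456 human miRNAs, those that every array of either group detected, with Benjamini-Hochberg adjustment. The methods name a moderated test with these thresholds, and the adjusted p was used because the study's list gives corrected values. Single values had exact permutation tests. The fit was tested on simulated data. The number of arrays limits the precision. RefSeq tables matched 2248 human miRNAs. The members and lists were chosen with earlier results of these data known. The rule for members shown with every array took the 6 brightest, the 6 largest rises and all falls among called members detected on all arrays, and those detected in 1 group alone, with both arms detected, or sharing a seed with a tested family.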

Additional observations from a re-analysis of the deposited data

Results flagged for a closer look

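Of 42 groups of 4 arrays examined for the members described with every array and for their share of the signal, 3 held an array far from the other 3 by Dixon's ratio, against 2.1 that chance gives, since it flags about 1 group in 20. UNC1999 replicate 4 of miR-4433a-3p lay at a log2 signal of 6.574, above the other UNC1999 arrays. DMSO replicate 3 of miR-4484 lay at 6.346, above the other DMSO arrays. DMSO replicate 2 of miR-4481 lay at 4.113, below the other DMSO arrays.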

How the results depend on the processing

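Of the 18 members called higher and 5 called lower, against 164 and 158 of all 456 tested miRNAs, the labelling spike-ins gave 30 and 0 (295 and 7 of all), no scaling 0 lower (4 of all), the 75th percentile over all human miRNAs 1 lower (88), quantile normalization 2 lower (134), the mean of log2 probe values 3 lower (158) and normexp 6 and 10 (54 and 230). No filter on detection gave 5 higher (71 of 2549), the authors' log2 values 11 higher over the same miRNAs (146) and 9 and 3 over every feature (118 and 88 of 2042), alike arrays averaged 8 and 1 (70 and 86), and the methods' paired test 5 and 2 (65 and 87). An adjusted p of at most 0.01 left 3 lower, and a 2-fold limit 0 in both directions. No share over all tested miRNAs is given for either limit. Leaving out 1 array gave 14 to 18 higher (135 to 173 of all) and 5 lower (143 to 158 of all). With the replicate block 17 were called higher and 5 lower (159 and 149 of all). Deviations of equal numbers correlated at -0.42 to 0.27, which does not tell whether equal numbers were run together. The median log2 fold change of the members was 0.50 when the 75th percentile took in all human miRNAs, 0.88 without scaling, 0.99 with spike-ins, -0.16 with normexp and 0.12 among members detected on all 8 arrays. The members' share of the signal rose by 7.37 percentage points, and by 4.60 with normexp.

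Signs turned as follows. Without scaling and with spike-ins the log2 fold change was 0.083 and 0.20 for miR-4428, 0.15 and 0.27 for miR-4443, 0.25 and 0.37 for miR-4433a-5p, 0.32 and 0.44 for miR-4484, 0.37 and 0.48 for miR-4449, 0.62 and 0.74 for miR-4505, 0.59 and 0.71 for miR-4430, 0.51 and 0.63 for miR-4465 and 0.63 and 0.74 for miR-4507. When the 75th percentile took in all human miRNAs it was 0.14 for miR-4505, 0.11 for miR-4430, 0.035 for miR-4465 and 0.15 for miR-4507. With normexp it was -0.10 for miR-4433a-3p, -0.31 for miR-4481, -0.27 for miR-4522, -0.26 for miR-4433b-3p, -0.16 for miR-4476 and miR-4496, -0.08 for miR-4515 and 0.059 for miR-4505. For miR-4429, for which no fold is given, the fitted difference of floored signals turned to -0.29. Without DMSO replicates 2 and 3 together it was 0.052 for miR-4505, 0.001 for miR-4430 and 0.063 for miR-4507. For miR-4505 it was 0.044 with the mean of log2 probe values and 0.008 in the deposited table. For miR-4485-5p it was -0.025 to 0.259 with 1 array left out. The cause was not tested. Keeping outlier spots could not alter the detection calls. Signal over background limits the dim members, and a floor lowered to 0.1 of its value changed the log2 differences of 2 of the 35, miR-4429 and miR-4462.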
